A study of Vitis vinifera with 171 samples.

Results

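The constitutive, non-plastic genes of the 2008 vintage were 76 transcripts that the study had singled out because their expression in the grape berry varied little among vineyards and developmental stages. They were selected on the measured 2008 values: the study first removed genes that differed among the 11 vineyards at any stage, then kept those with the lowest standard deviation (SD) among samples. Probe sets were found for 75 of the 76 genes among 29544 rebuilt probe sets, by correlating the study's list with the arrays. The 2008 spread of the members is therefore a description, and only the 2006 and 2007 vintages, which the selection did not use, bear on their constancy.

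A gene is called constitutive when its transcript is present at a similar level whatever the tissue state, and plastic when its expression follows the environment. Constitutive genes often serve basic cell functions, such as protein synthesis and breakdown, vesicle traffic and central metabolism, and are used as internal references when transcripts are quantified. The grape berry is a demanding test for them. At veraison, the onset of ripening, the pericarp softens, accumulates sugars and, in red cultivars, anthocyanins, and much of its transcriptome is reprogrammed.

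The samples were pericarps (berries without seeds) of a single clone, *Vitis vinifera* cv Corvina clone 48, grown in vineyards of the Bardolino, Valpolicella and Soave areas near Verona. No treatment was applied. Vineyards AM, CS, MN and PSP were sampled in 2006, 2007 and 2008, and 7 further vineyards in 2008 only, at veraison, mid-ripening and harvest, with 3 biological replicates each. This gave 36 arrays in 2006, 36 in 2007 and 99 in 2008. Since only clone 48 was used, the values describe Corvina and not grapevine at large. Whole pericarp was analyzed, so fewer cells of a type and less RNA per cell cannot be told apart.

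Each gene was summarized over its 4 probes on a log2 scale, on which a difference of 1 is 2-fold. The 171 arrays were quantile normalized together by the authors, and no pair of them was identical. They lay on 19 slides, which were filled largely vineyard by vineyard. In 2007 only AM and CS shared a slide, and in 2006 PSP shared none with another vineyard. Vineyard and slide therefore cannot be told apart in most comparisons between vineyards. The median correlation of an array with its replicates was 0.988, and the lowest was 0.953, for a CC array of 2008. The 95th percentile of the random control probes, used here as the background level, ranged from 5.17 to 9.42 among arrays and averaged 6.99. In 2007 its median was 7.62 in AM and 7.46 in CS, against 6.39 in MN and 5.90 in PSP, while in 2006 it lay between 6.36 and 6.89 in the same vineyards. Ripening markers showed that the MN veraison arrays of 2007 stood apart. Grip22, a ripening-induced gene, read 6.14, 7.55 and 6.47 there, but 10.81 to 14.18 on the 9 other veraison arrays of 2007, and VvMYBA1, the regulator of anthocyanin synthesis, read 4.95, 4.95 and 5.07 against 7.28 to 9.85. Values without these arrays are given below for XTH32, VIT_05s0049g00520 and the stage calls of 2007.

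The match between list and arrays was clear for nearly every member. The best correlation was at least 0.99 for 52 members. Just inside the required 0.95 lay the ankyrin repeat gene VIT_03s0038g04270 with 0.961 and the oligouridylate-binding protein UBP1B (VIT_04s0008g02930) with 0.970. Just outside lay the ADP-ribosylation factor A1B gene VIT_01s0127g00440, a small GTPase of vesicle budding, whose best correlation was 0.941, and it was left out of all values that follow. In 2008, over 33 triplicate means, the SD of the matched members ran from 0.055 to 0.134 on the log2 scale. A total of 291 probe sets had a 2008 SD no higher than that of the most variable member, so the list is a subset of the least variable probe sets and not all of them.

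The members were sorted by hand into groups from their annotations. The largest annotated groups were 15 genes of metabolism, 9 of protein turnover and folding, 7 of transcription, chromatin and RNA, and 6 of translation. There were 5 genes related to stress and defense, 3 matched genes of vesicle traffic and sorting, and 2 each of the cell wall, hormone responses and the peroxisome. A further 11 carried other annotations, and 13 had none. Classical reference genes such as actin, tubulin, glyceraldehyde-3-phosphate dehydrogenase and polyubiquitin were not on the list, although actin-related protein 5 (VIT_13s0019g01860), a chromatin remodeling subunit, was.

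Most members were very bright on the arrays, and a few were not detected at all. Over all arrays, 67 of the 75 members lay above the background level, at 11.20 to 15.67 (log2), and 66 exceeded it on every array. The median level was 13.62 for members and 8.88 for all probe sets. A level of 12.64 was exceeded by 10% of all probe sets and by 57 members. Levels above 15 were reached by 11 members (14.7%) but by only 43 of all probe sets (0.146%), and the brightest value in the deposited data was 15.95. Because brightness also depends on the probes, these levels were compared with the controls and not used to rank transcripts.

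**Figure D1:**
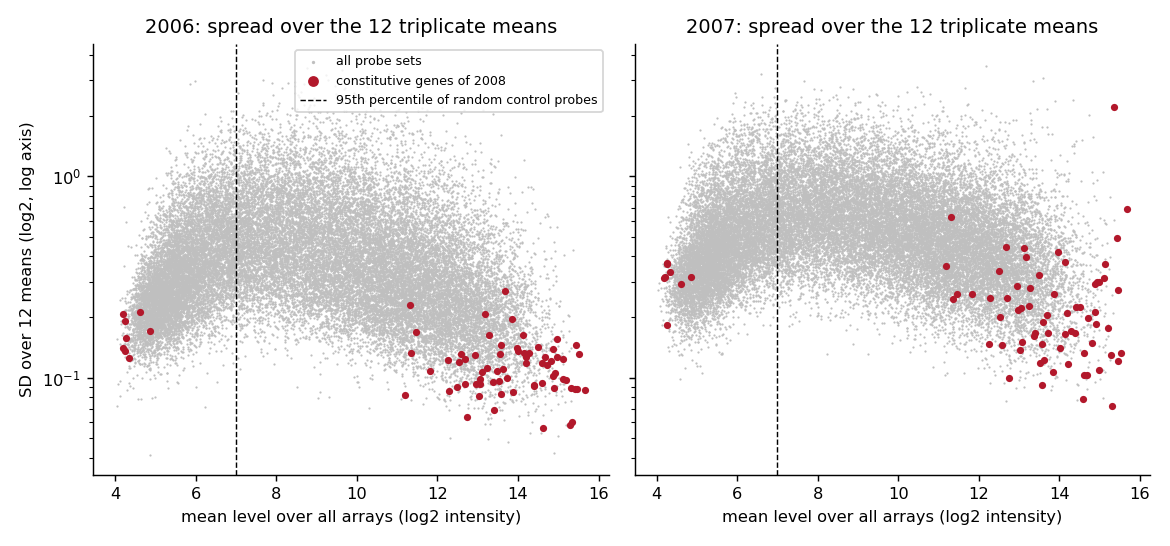
Spread over the 12 triplicate means of 2006 (left) and 2007 (right), as SD on a log axis, against the mean level over all arrays in log2 intensity. Gray points are all 29544 probe sets, red points are the 75 matched constitutive genes, and the dashed line is the mean 95th percentile of the random control probes, 6.99. Members lie in a bright group above 11 and a dim group below 5, and the 2007 panel shows 1 bright member at an SD of 2.21.

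The other 8 members lay between 4.19 and 4.86, below the background level, which 32.2% of all probe sets did not exceed. For these genes the arrays gave no level above the control probes, so their constancy is that of the background. NAC domain containing protein 47 (VIT_06s0004g02340), a transcription factor, had triplicate means from 4.15 to 5.37 (median, 4.57) over 2006 and 2007. The alpha galactosidase gene VIT_19s0014g00440, whose product releases galactose from sugars and cell wall polymers, ranged from 4.63 to 5.79 (median, 4.91). The nodulin MtN21 gene VIT_18s0001g03170 ranged from 3.96 to 5.34 (median, 4.33). None of the 3 exceeded the background in any mean. The chromosome condensation protein gene VIT_14s0108g00660 varied least, from 4.11 to 4.67 (median, 4.30). The 4 unannotated genes were VIT_09s0002g06250, with means from 3.93 to 5.01, VIT_06s0009g00940 with 4.00 to 4.93, VIT_16s0050g01750 with 3.95 to 5.42 and VIT_00s1221g00010 with 4.05 to 5.20. In each of the 8 the highest mean came from AM or CS in 2007, the vineyards with the highest background that year, and the part of background in these means was not tested.

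To ask whether constancy in 2008 carried over to other vintages, the SD over the 12 triplicate means of each year (4 vineyards by 3 stages) was calculated. In 2006 the median SD was 0.118 for the members and 0.333 for all probe sets, and every one of the 75 members was below the latter. In 2007 the medians were 0.218 and 0.495, and 71 members were below the median of all. In the same 4 vineyards in 2008 the median SD was 0.105 for members and 0.357 for all probe sets. The SD was lower in 2006 than in 2008 for 28 members, but in 2007 for only 5. Since low spread in 2008 had chosen the members, a higher SD in other years can be expected from the choice alone. These counts are therefore no measure of lost constancy. Without the MN veraison arrays, the median of 2007 was 0.191 for members and 0.477 for all.

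**Figure D2:**
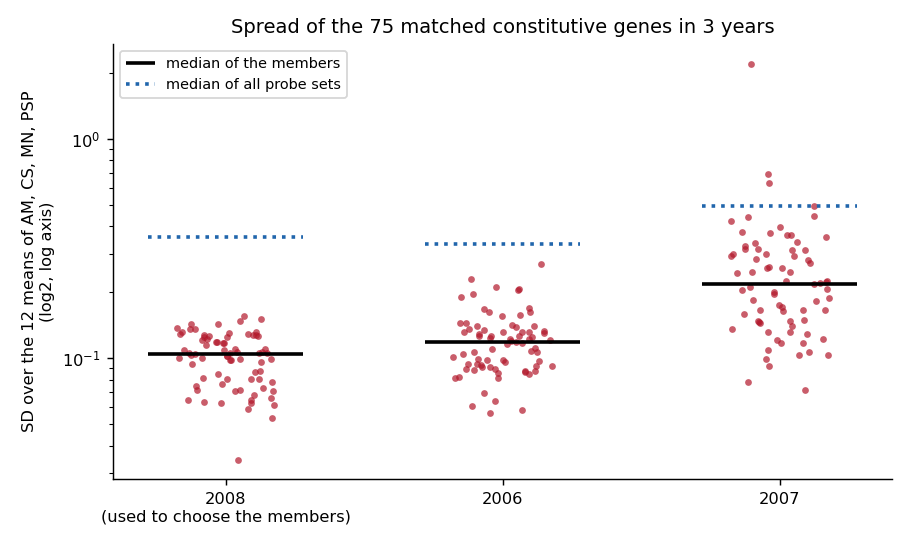
SD over the 12 triplicate means of vineyards AM, CS, MN and PSP (log2 units, log axis) in 2008, which was used to choose the members, and in 2006 and 2007. Each point is 1 of the 75 matched members, the black bar is their median (0.105, 0.118 and 0.218) and the dotted blue bar the median of all probe sets. Spread in 2006 resembled that of 2008, and in 2007 the points extend upward to 2.21.

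Counted another way, 60 of the 75 members stayed within 0.5 (log2) over the 12 means of 2006, against 6.83% of all probe sets. In 2007 the same held for 23 members and 1.04% of all. A range under 1, that is less than 2-fold between the highest and lowest mean, was found for all 75 members in 2006 (44.1% of all) and for 59 in 2007 (17.3% of all). Over the 24 means of both years together, 57 members varied less than 2-fold, compared with 10.9% of all probe sets. In both years, 46 members were among the 10% of probe sets with the lowest SD, which held for 3.67% of all. Part of this spread was that between replicates. The median SD within triplicates was 0.0923 for members in 2006 and 0.109 in 2007, and for all probe sets 0.226 and 0.305. The SD over the means was 2.11 and 2.82 times the error of a triplicate mean for the median member, and 2.90 and 3.22 times for the median probe set.

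Bright probe sets vary less than others on this array, so members were set against probe sets of similar level. Among sets with a mean level from 13 to 14, the median SD of 2006 was 0.206 for all 1579 sets and 0.107 for the 20 members. From 14 to 15 it was 0.170 for 440 sets and 0.121 for 21 members. Above 15 it was 0.124 for 43 sets and 0.0892 for 11 members. In 2007 the corresponding medians were 0.335 and 0.177, then 0.291 and 0.171, and above 15 they were 0.258 and 0.274. Of the 67 members above background, 63 in 2006 and 52 in 2007 had a lower SD than the median set of their level. The brightest members thus differed least from other sets of their brightness in 2007, and 5 of the 11 were below the median. Among the 75 members, the rank order of SD in 2008 was only weakly related to that in 2006 (Spearman's rho, 0.21) and in 2007 (0.05). The choice of the members had held their 2008 SDs to between 0.055 and 0.134, and such a narrow range by itself weakens a rank correlation. The correlations therefore cannot show whether spread in 2008 predicts that of other years. All these values share the arrays' probes and normalization, and are given as a description.

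The 6 members with the lowest SD in 2008 differed in their spread in 2007. The lowest of all, 0.055, belonged to xyloglucan endotransglucosylase/hydrolase 32 (XTH32, VIT_06s0061g00550), which cuts and rejoins the xyloglucan chains that tether cellulose in the cell wall. In 2006 its 36 arrays ran from 15.29 to 15.70, with a median of 15.54, and the triplicate means had an SD of 0.060. In 2007 the median array was 15.35 and the highest 15.58, but the lowest was 6.14. The 3 low arrays were those of MN at veraison, with 8.77, 8.14 and 6.14, a mean of 7.68 ± 1.37 (SD, n = 3). At the same stage of 2007, AM had 15.44 ± 0.06, CS 15.20 ± 0.31 and PSP 15.09 ± 0.06 (SD, n = 3 each), and no array of these vineyards overlapped with MN. The spread over the 24 means of 2006 and 2007 was 7.89 (log2) for XTH32, the widest of any member, and vineyards differed in 2007 (limma F test, adjusted p = 1.66e-15) but not detectably in 2006 (adjusted p = 0.568). Without the MN veraison arrays its SD in 2007 was 0.159, and vineyards still differed (adjusted p = 0.00353), with means between 15.01 and 15.52. These are the arrays on which grip22 and VvMYBA1 were lowest, and the part of the berries' developmental state in the result was not tested.

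The unannotated gene VIT_05s0049g00520, the brightest member, had a similar pattern at a smaller scale. Its arrays ran from 15.33 to 15.88 in 2006 (median, 15.78) and from 11.17 to 15.89 in 2007 (median, 15.74). The MN veraison arrays of 2007 read 14.66, 11.17 and 14.25, and all other veraison arrays of that year 15.48 to 15.77. Vineyards differed in 2007 with an adjusted p of 0.00122 (limma F test). The MN mean of 13.36 had an SD of 1.90 (n = 3), since replicate B was far below the other MN arrays. Without the MN veraison arrays its means of 2007 lay between 15.53 and 15.85, and the vineyards no longer differed at the threshold (adjusted p = 0.0758).

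The gamma-thionin precursor gene (VIT_01s0010g02030), which encodes a small cysteine-rich defense peptide, was among the same 6. In 2007 veraison was its lowest stage in every vineyard, least so in PSP. In 2006 its means averaged 15.46 ± 0.08 at veraison, 15.54 ± 0.10 at mid-ripening and 15.50 ± 0.09 at harvest (SD, n = 4 vineyards). In 2007 they were 14.61 ± 0.48, 15.42 ± 0.18 and 15.43 ± 0.19. The veraison arrays read 14.07, 14.34 and 13.68 in MN, 14.58, 14.84 and 14.65 in AM, 14.81, 14.52 and 14.20 in CS and 15.19, 15.20 and 15.17 in PSP. The stage difference of 2007 passed the test (adjusted p = 0.0210), and that of 2006 did not (adjusted p = 0.705).

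The 3 others that completed the 6, besides the S-adenosylmethionine synthetase described next, had narrower array ranges in 2007 than XTH32 and gamma-thionin. The gene for allergenic protein Pt2L4 (VIT_12s0059g00590) had arrays from 15.19 to 15.65 in 2006 (median, 15.46) and from 15.06 to 15.63 in 2007 (median, 15.46). ABC transporter F member 2 (VIT_06s0061g00410), of a family that acts on ribosomes rather than membranes, ran from 14.50 to 15.05 (median, 14.69) and from 14.49 to 15.17 (median, 14.82). The unannotated VIT_06s0004g04660 ran from 15.11 to 15.47 (median, 15.23) and from 14.62 to 15.45 (median, 15.24). The ranges of the years overlapped in each of the 3, and their SDs over the 24 means were 0.104, 0.176 and 0.145. Without the MN veraison arrays of 2007, their SDs of that year were 0.0776, 0.183 and 0.184, against 0.159 for XTH32. Vineyards of 2007 then differed for ABC transporter F member 2 (limma F test, adjusted p = 2.23e-05) and VIT_06s0004g04660 (adjusted p = 0.0146). They did not differ detectably for Pt2L4 (adjusted p = 0.328), and 82.5% of all probe sets were called. Pt2L4 and VIT_06s0004g04660 had medians above 15, near the highest deposited value of 15.95, and the part of this upper limit was not tested.

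**Figure D3:**
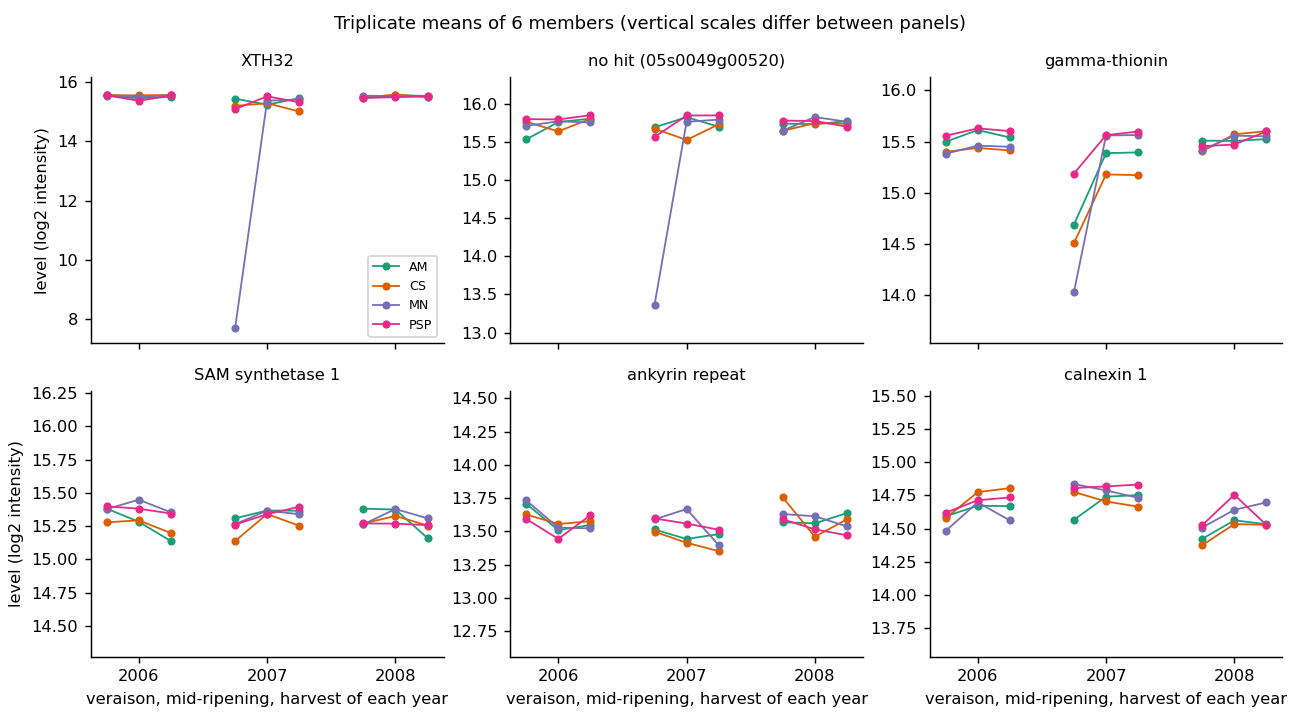
Triplicate means (log2 intensity) of 6 members at veraison, mid-ripening and harvest, joined by lines, in 2006, 2007 and 2008 for vineyards AM, CS, MN and PSP. The vertical scale differs between panels. XTH32 and VIT_05s0049g00520 drop only in MN at veraison of 2007, to 7.68 and 13.36. In 2007 gamma-thionin is lowest at veraison in each of 4 vineyards, least so in PSP. The bottom row shows 3 of the 4 members with the smallest spread.

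The member with the lowest SD over 2006 and 2007 was S-adenosylmethionine synthetase 1 (SAM1, VIT_05s0020g00670), which makes the cell's main methyl donor and the precursor of ethylene and polyamines. Its arrays lay between 15.10 and 15.49 in 2006 (median, 15.35) and between 15.07 and 15.43 in 2007 (median, 15.32). The SD of the 24 means was 0.0794 and their whole range 0.31. Its level lies near the highest deposited value of 15.95, and probe sets above 15 had the lowest median SD of all levels. The part of this upper limit in the low SD was not tested. Next came vacuolar processing enzyme gamma (VIT_04s0008g00720), a protease that matures vacuolar proteins, with arrays from 14.46 to 14.88 (median, 14.66) and from 14.43 to 14.92 (median, 14.62). The ankyrin repeat gene VIT_03s0038g04270 ran from 13.36 to 13.81 (median, 13.59) and from 13.27 to 13.70 (median, 13.48). Calnexin 1 (CNX1, VIT_01s0150g00400), a chaperone that folds glycoproteins in the endoplasmic reticulum, ran from 14.39 to 14.88 (median, 14.67) and from 14.46 to 14.95 (median, 14.78). In all 4 genes the arrays of 2006 and 2007 overlapped.

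At the other end, besides XTH32 and VIT_05s0049g00520, were the zinc finger CCCH protein gene ZFN1 (VIT_04s0023g00370), of a family that binds nucleic acids, and the unannotated VIT_18s0001g10780. ZFN1 arrays ran from 10.53 to 11.84 in 2006 (median, 11.26) and from 9.63 to 12.18 in 2007 (median, 11.56). At veraison of 2007 it had 9.97 ± 0.30 in PSP, 10.83 ± 0.09 in MN, 11.65 ± 0.13 in AM and 11.90 ± 0.09 in CS (SD, n = 3 each), and PSP was also lowest in 2006, with 10.72. Vineyards differed in 2006 (adjusted p = 0.000254) and in 2007 (adjusted p = 9.69e-14). VIT_18s0001g10780 ran from 12.76 to 13.53 in 2006 (median, 13.22) and from 11.97 to 13.38 in 2007 (median, 12.83). Its 2007 means in AM (12.22 to 12.37) and CS (12.13 to 12.68) lay below every mean of 2006, those of MN were 12.95 to 13.01 and those of PSP 13.15 to 13.35, and vineyards differed in 2007 (adjusted p = 7.26e-12). The AM and CS arrays of 2007 lay on other slides than those of MN and PSP, and the part of the slide was not tested.

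Changes over ripening were then tested within each year, with the vineyard as a block. In 2006, 5 members differed between stages at an adjusted p below 0.05 (limma F test), against 42.5% of all probe sets. In 2007 there were 3 members against 22.9% of all. In both years 1 member was called, and the share of all called in both was not counted. The largest difference of a later stage from veraison had a median of 0.118 in 2006 and 0.173 in 2007 for members, and of 0.394 and 0.454 for all probe sets. The counts were small and moved with single vineyards, as did the share of all probe sets. In 2006, 3 were left without AM (35.7% of all), 1 without CS (29.5%), 2 without MN (33.3%) and 1 without PSP (30.3%). In 2007, 1 was left without AM (16.1% of all), 1 without CS (14.1%), 2 without PSP (9.40%) and 0 without MN (10.4%). Without MN, 4 were at an unadjusted p below 0.05 in 2007, against 8373 of all probe sets. Without the MN veraison arrays, 2 were called in 2007 (17.1% of all), the gamma-thionin gene and the ubiquitin-conjugating enzyme. VIT_07s0005g01250 was then not called (adjusted p = 0.0944).

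The genes called were taken up after their values were seen. Ubiquitin-conjugating enzyme E2 J1 (VIT_05s0077g01100), which acts in the disposal of misfolded proteins from the endoplasmic reticulum, was the member called in both years. In 2006 it rose from 12.98 ± 0.21 at veraison to 13.31 ± 0.11 at mid-ripening and stood at 13.30 ± 0.08 at harvest (SD, n = 4 vineyards; adjusted p = 0.0387). In 2007 the values were 12.39 ± 0.12, 13.07 ± 0.16 and 13.18 ± 0.23 (adjusted p = 0.0102). In both years veraison was the lowest stage in each of the 4 vineyards. The calcineurin phosphoesterase gene VIT_01s0011g00650 rose in 2006 from 13.38 ± 0.14 through 13.76 ± 0.15 to 13.92 ± 0.15 (adjusted p = 0.00425). Its values of 2007, 13.58 ± 0.22, 13.80 ± 0.09 and 13.95 ± 0.06, did not pass (adjusted p = 0.186).

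The remaining 3 of 2006 differed by less than 0.4 between any stages. Orotate phosphoribosyltransferase (VIT_13s0139g00200), an enzyme of pyrimidine synthesis, went from 13.65 ± 0.09 at veraison to 14.01 ± 0.16 at harvest (adjusted p = 0.0131), and in 2007 from 13.96 ± 0.17 to 13.97 ± 0.10. The casein kinase II alpha chain (VIT_07s0129g00270), a catalytic subunit, went from 13.33 ± 0.11 to 13.60 ± 0.04, and PEX14 (VIT_17s0000g08410), a docking protein for import into the peroxisome, from 13.95 ± 0.06 to 14.23 ± 0.03 (adjusted p = 0.0387 for each). The third gene called in 2007, besides gamma-thionin and the E2 J1 enzyme, was the unannotated VIT_07s0005g01250, at 13.23 ± 0.25 at veraison and 13.92 ± 0.33 at harvest (adjusted p = 0.0460). All 7 genes were lowest at veraison in the year in which they were called.

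Vineyards were compared within stages using the 3 replicates of each, as the study did for 2008. Of the 75 members, 40 differed between vineyards in 2006 (77.7% of all probe sets) and 61 in 2007 (86.7% of all). In both years 36 differed, and the share of all probe sets called in both was not counted. Differences were small in size for the median member, but wide for XTH32 and ZFN1 at veraison of 2007, as given above. The range over the 4 vineyards, averaged over the stages, had a median of 0.216 in 2006 and 0.402 in 2007 among members, and of 0.575 and 0.95 among all probe sets. The count of 2006 depended on the replicates, with 5 to 19 members called when any replicate letter was left out (54.3% to 68.7% of all), and with slide as a random block it was 10 (57.1% of all). Without MN it was 19 (65.0% of all), and without PSP 24 (68.9% of all). With slide as a random block the count of 2007 was 45 (72.0% of all). Since slides were filled largely by vineyard, most of these differences cannot be told apart from differences between slides.

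No member was called between 2007 and 2006 when the 4 vineyards served as replicates (limma, adjusted p below 0.05), against 0.586% of all probe sets. At an unadjusted p below 0.05 there were 10 members, and 20.4% of all. The smallest adjusted p among members was 0.130, for the unannotated VIT_12s0028g03150, which was lower in 2007 by 0.43 ± 0.13 (log2, SE). With the 24 triplicate means and a block for each combination of vineyard and stage, 9 members were called, 2 higher and 7 lower in 2007, against 19.7% of all probe sets. With single arrays 44 were called (53.8% of all), and with slide as a random block 28 (41.7% of all). In these fits the means or arrays of 1 vineyard count as separate samples. The spread in the comparison over vineyards also drew on the 2008 means, which had chosen the members. Without the 2008 arrays (8 means), 0 members and 0% of all probe sets were called, with 2 members and 4630 sets at an unadjusted p below 0.05, and the SE of VIT_12s0028g03150 was 0.16 (adjusted p = 0.291). The absolute difference between the years had a median of 0.140 for members and 0.235 for all, and it exceeded 0.5 in XTH32 only, against 18.5% of all.

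XTH32 was lower in 2007 by 0.85 ± 0.42 (log2, SE; adjusted p = 0.288). Its differences were -0.12 in AM, -0.40 in CS, -2.72 in MN and -0.18 in PSP, so the mean rests on MN. Without the MN veraison arrays of every year the difference was -0.21 ± 0.12 (log2, SE, adjusted p = 0.357). Of the 9 members called over the 24 means, 4 are given here, chosen after their values were seen. VIT_12s0028g03150 was lower in 2007 in all 4 vineyards, with differences of -0.49 in AM, -0.68 in CS, -0.12 in MN and -0.42 in PSP. VIT_18s0001g10780 had -0.83, -0.78, -0.22 and -0.05 in the same order. The strictosidine synthase gene VIT_08s0007g05370, of a family named for an enzyme of indole alkaloid synthesis, had -0.46, -0.51, -0.27 and -0.32. The AAA-type ATPase gene VIT_07s0005g00200 was the member with the largest increase, and was higher by 0.54, 0.42, 0.14 and 0.20.

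**Figure D4:**
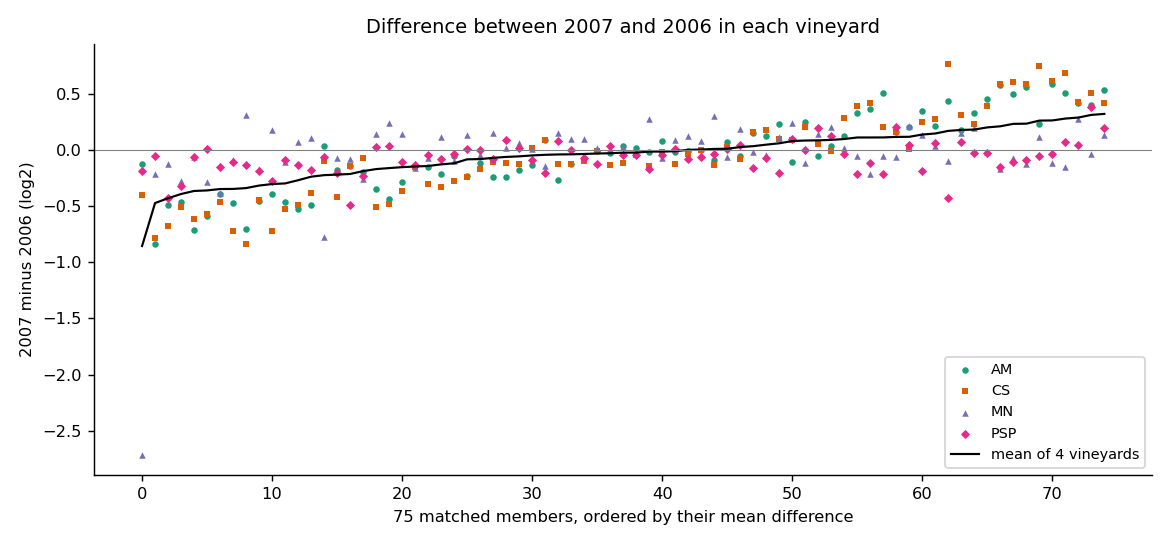
Difference between 2007 and 2006 (log2) of the 75 matched members, each averaged over 3 stages, ordered by the mean over vineyards (black line). Symbols show vineyards AM, CS, MN and PSP. The median distance from 0 is 0.232 in AM and 0.256 in CS, against 0.116 in MN and 0.0803 in PSP, and the single point at -2.72 is XTH32 in MN.

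The year differences were unequal among vineyards. The median absolute difference of the members was 0.232 in AM and 0.256 in CS but 0.116 in MN and 0.0803 in PSP, and for all probe sets it was 0.383, 0.441, 0.251 and 0.339. Differences over 0.4 were seen in 23 members in AM, 26 in CS, 2 in MN and 3 in PSP, and in 47.9%, 54.1%, 31.0% and 43.1% of all probe sets. The random control level moved in the same vineyards, from 6.36 to 7.62 in AM and from 6.39 to 7.46 in CS, and the other way in MN and PSP, and its part in these differences was not tested. Slide and year could be separated only for PSP at veraison, where the arrays of 2006 and 2007 lay on 1 slide. There the median absolute difference was 0.142 for members and 0.557 for all probe sets, and no member differed by more than 1, while 26.5% of all did. Grip22 read 10.81 to 11.26 on the PSP veraison arrays of 2007, and the lowest vineyard mean at veraison of 2006 was 13.04. VvMYBA1 read 9.34 to 9.70 on these arrays, within the vineyard means of 2006 (8.82 to 10.94). The part of the berries' developmental state in this difference was not tested. In the other combinations, slide and year cannot be told apart.

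Within most functional groups the spread differed several-fold between members. The 6 translation genes were closer to each other, with SDs over the 24 means from 0.11 to 0.20. They included ribosomal proteins S7 (VIT_17s0000g03530) and L10 (VIT_06s0004g08260), lysyl-tRNA synthetase (VIT_15s0024g00700), which charges a transfer RNA, and the GTP-binding protein obg (VIT_10s0003g05020). Their ranges over the 24 means were 0.68, 0.70, 0.50 and 0.48. None of the 6 was called between stages, and 5 were called between vineyards in 2006 and 5 in 2007. Beside these and the following counts between vineyards stand 77.7% and 86.7% of all probe sets, and with slide as a random block the count of 2006 over all 75 members was 10.

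In protein turnover and folding, SDs ran from 0.08 for vacuolar processing enzyme gamma to 0.35 for the E2 J1 enzyme, and 3 of 9 genes were called between vineyards in 2006 and 7 in 2007. The group holds 2 deubiquitinating enzymes that differed: UBP6 (VIT_09s0002g02500), which acts at the proteasome, had a range of 0.35 over the 24 means, and UBP5 (VIT_00s0174g00150) one of 0.98. RPT4 (VIT_03s0038g04350), an ATPase of the proteasome's regulatory particle, had a range of 0.80. Metabolic genes had a median SD of 0.15, with 9 of 15 called between vineyards in 2006 and 12 in 2007. Besides SAM1 they included transaldolase (VIT_01s0150g00190), of the pentose phosphate pathway, with a range of 0.50, and UTP-glucose-1-phosphate uridylyltransferase (VIT_04s0044g00710), which makes UDP-glucose, with 0.47.

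The metabolic group also held 2 inorganic pyrophosphatases, which hydrolyze the pyrophosphate released by biosynthesis. VIT_08s0040g02470 had a range of 0.43 and VIT_04s0023g02050 one of 0.73, with its lowest mean in MN at veraison of 2007.

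The 3 matched genes of vesicle traffic were called between vineyards in both years, as were most probe sets: SEC13 (VIT_19s0015g00810), a coat subunit of vesicles that leave the endoplasmic reticulum, Vps27 (VIT_18s0001g01180), which sorts cargo for the vacuole, and RAB1C (VIT_16s0013g00520), a small GTPase. Their ranges were 0.54, 0.67 and 0.96. Among the 5 stress and defense genes, 4 lay above 15, and abscisic stress ripening protein 2 (ASR2, VIT_18s0072g00380) had a range of 0.995, with its lowest mean in CS at veraison of 2007. The hormone-related genes, auxin response factor 2 (VIT_01s0244g00150), a transcription factor, and GASA5 (VIT_18s0001g09460), of a gibberellin-regulated family, ranged over 0.94 and 0.87, and both differed between vineyards in both years. Transcription and chromatin genes were less uniform, with SDs from 0.14 to 0.47, the latter for ZFN1. The peroxisomal pair ranged over 0.51 for PEX14 and 0.96 for PEX3 (VIT_17s0000g02760), which inserts peroxisomal membrane proteins. The 13 unannotated genes had the highest median SD in 2007, 0.32, of the groups with more than 2 members, and 4 of them were at background.

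In all, 9 members passed none of the 5 tests (5.68% of all probe sets passed none), and 5 of these were at background. The 4 above background were SAM1, the ankyrin repeat gene, calnexin 1 and UBP6. Each was below 2-fold in range over the 24 means, with 0.31, 0.38, 0.35 and 0.35. A p that misses the threshold does not show that a gene is constant. The ranges describe how far the measured means lay apart, and set no limit on a true change.

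Relatives of the members were taken from the study's other gene lists, most of which hold genes chosen for a change, so they are not a sample of their families. Their counts stand beside 42.5% of all probe sets called between stages in 2006 and 22.9% in 2007. Of 112 matched ribosomal protein genes, 24 were called between stages in 2006, 6 higher and 18 lower at harvest than at veraison, and 5 in 2007. Their median SD was 0.216 in 2006 and 0.530 in 2007, against 0.130 and 0.216 for the 2 members. The members were brighter, so this comparison is not matched for level. The relatives' median level was 12.29, and all probe sets from 12 to 13 had median SDs of 0.244 and 0.393. Of 28 relatives in the proteasome and ubiquitin group, 11 were called in 2006, all higher at harvest, and 3 in 2007, of which 2 were higher. Of 8 small GTPases and their partners, 2 and 1 were called, and of 20 aminoacyl-tRNA synthetases 6 and 4. The 36 genes taken by annotation under customary reference families included tubulins, elongation factor 1 and cyclophilins. They also held FKBP-type isomerases, a tubulin folding cofactor and an F-actin capping protein, so they do not stand for classical reference genes. Their median level was 10.89, and their median SDs were 0.254 and 0.376, against 0.321 and 0.494 for all probe sets from 10 to 12. Of the 36, 8 and 3 were called between stages. Among these, elongation factor 1-alpha VIT_05s0029g01150 had SDs of 0.112 and 0.160, within the range of the members, and VIT_05s0029g01160, its neighbor by identifier, 1.05 and 1.196.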

How the data were processed

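For 171 one-color NimbleGen arrays, the authors quantile normalized the Cy3 intensity of each probe and deposited it on a linear scale, without gene identifiers (the submitters' notes also name RMA). These values were used unchanged. Probe numbers were tiled into 29544 sets (windows of 10 candidates with 4 probes), and each set was summarized by median polish on the log2 scale over all arrays. The study's list of 76 genes was matched to sets over the 33 triplicate means of 2008, at a correlation of at least 0.95 and a lead of 0.01, and its values were used for nothing else. Members and gene lists were chosen with earlier results of these data known. Tests used limma 3.58.1 (lmFit, eBayes) in R 4.3.3, with Benjamini-Hochberg adjustment over all sets, and were tested on simulated data. Years were compared over vineyard-by-year means (2008 included for the spread), stages over triplicate means, both with vineyard as a block, and vineyards over arrays within stages.

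Named members were the 6 with the lowest SD in 2008, the 4 most and 4 least variable over 2006 and 2007 above background, all at background, and others as examples. A part of the rule for genes called between years named none. Markers of seed and green tissue were not analysed here. The number of arrays limits the precision. Alternatives covered the summary, offset, normalization, filter, matching, level, threshold, replicates, vineyards, stages, slide and replicate blocks, and, chosen after seeing the data, a variance trend and omission of the MN veraison arrays or, between years, of the 2008 arrays.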

Additional observations from a re-analysis of the deposited data

Results flagged for a closer look

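Of 40 groups of 4 vineyard values (20 named members in 2006 and 2007), 2 held a vineyard whose gap to the others exceeded the 95% limit of Dixon's test. Chance gives about 1 in 20, that is 2 of 40, so the number flagged is that given by chance. Both genes had also been named for their high SD over the same means, and the flags are a description of them. XTH32 (VIT_06s0061g00550) had a level of 12.83 (log2) in MN in 2007, averaged over stages, and 15.17 to 15.38 in the other vineyards. The unannotated VIT_05s0049g00520 had 14.97 in MN in 2007 and 15.64 to 15.75 in the others. Both values contain the MN veraison arrays of 2007, on which the ripening markers were lowest.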

How the results depend on the processing

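No member was called between 2007 and 2006 in any alternative over vineyard means, in which 0 to 774 of all probe sets were called, against 173, and without the 2008 arrays, chosen after seeing the data, 0. With single arrays 44 of 75 members were called, with the replicate block 44, with slide as a random block 28, and with 24 means 9 (53.8%, 53.6%, 41.7% and 19.7% of all probe sets). Single arrays treat replicates, stages and vineyards as independent samples. Between stages in 2006, single arrays called 31 members (66.8% of all probe sets). With the replicate block it was 31 (66.2%), and with slide as a random block 33 (67.9%). In 2007 these fits called 35 (60.4%), 34 (59.6%) and 30 (53.9%). In 2006, against 5 members (42.5% of all), 1 was called at an adjusted p below 0.01 (27.2%), and 3 of the 52 matched at 0.99. With 50 added to the intensities 10 were called (43.5%), and with a variance trend 11 (44.3%). Without AM it was 3 (35.7%), without CS 1 (29.5%), without MN 2 (33.3%) and without PSP 1 (30.3%). Leaving out a replicate gave 2 to 4 (36.2% to 41.9%). In 2007, against 3 (22.9% of all), the counts were 0 at 0.01 (8.97%), 5 with 50 added (23.8%) and 6 with the trend (24.9%). Among sets above the control level, 5 were called (32.3%). Without AM it was 1 (16.1%), without CS 1 (14.1%) and without MN 0 (10.4%), and 2 to 3 without a replicate (18.8% to 20.9%). Between vineyards in 2006, against 40 (77.7% of all), the counts were 26 at 0.01 (67.0%), 19 without MN (65.0%) and 24 without PSP (68.9%). With slide as a random block it was 10 (57.1%), and with the replicate block 40 (77.1%). Leaving out a replicate gave 5 to 19 (54.3% to 68.7%). In 2007 the count of 61 (86.7% of all) stayed within 1.5 times in every alternative. It was 41 to 48 without a replicate (71.4% to 83.0%), and 62 with the replicate block (86.0%). The median member SD ran from 0.1048 to 0.1276 in 2006 and from 0.1815 to 0.2255 in 2007. The replicate letters did not pair the arrays: over 828 correlations of same-letter deviations the median was 0.0015, and 152 exceeded 0.1. The causes of these changes were not tested.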
